A study of Homo sapiens with 6 samples.

Results

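ER-associated degradation (ERAD) removes misfolded proteins from the endoplasmic reticulum (ER). A set of 37 named ERAD genes was followed here in cells of OE33, an established line of human oesophageal adenocarcinoma. Members were taken by symbol from general knowledge of the pathway, with earlier results of these data known. All 37 were found among the 58051 genes of the count table through GENCODE 29. The 2 groups were 3 replicates left untreated and 3 replicates exposed for 24 h to 15 µM APX2009. This compound inhibits the redox activity of APE1, an enzyme best known for cutting abasic sites in DNA repair. The study addressed the transcripts downstream of that redox function. All 6 libraries are poly(A)-selected RNA of the same cell line. The control is untreated cells with no vehicle named, and no group with altered APE1 was analysed here, so the part of APE1 in the differences was not tested.

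In ERAD, lectins and mannosidases first read and trim the glycans of a misfolded protein. The protein is handed to a membrane complex built around the ubiquitin ligase SYVN1 (HRD1) and its scaffold SEL1L, with derlins and HERPUD1. Conjugating enzymes (E2) supply ubiquitin, and the ATPase VCP (p97) with its cofactors pulls the tagged protein into the cytosol for the proteasome. Other membrane ligases, such as RNF139, RNF5 and RNF185, serve other clients, including enzymes and regulators of sterol synthesis. Several ERAD genes are known targets of the unfolded protein response, which secretory epithelial cells use to match folding and disposal to their load.

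The libraries held between 21158750 and 26111656 gene counts. All 8 epithelial markers were present, with summed levels of 26238 to 26976 CPM (counts scaled to a common library size) in untreated and 14831 to 18448 CPM in APX2009 libraries. Of the 8, KRT8, KRT18, KRT19 and CDH1 fell, while EPCAM, ESRP1, CLDN4 and CLDN7 did not pass, with log2 changes between -0.07 and 0.16. KRT19 held most of the sum, with means of 18555 CPM in untreated and 11303 CPM in APX2009 libraries. The part of these falls in the members' changes was not tested. In bulk RNA, fewer cells of a type and less RNA per cell cannot be told apart. APX2009 replicate 1 stood apart: 18 of 20 fibroblast, leukocyte and endothelial markers had at least 1 count there, against 6 to 10 in the other 5 libraries. Their summed level was 31.0 CPM there and 17.0 to 19.6 CPM elsewhere, with THY1 and CD3E at 0 counts in every library; 25015 genes had a count in that library and 21845 to 22446 in the others. Markers of other cell types that averaged at least 1 CPM were COL1A1, CD14, CD68 and CD79A, of which CD68 rose (log2 change 1.19 ± 0.26; edgeR adjusted p = 0.00513).

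A member is said to rise or fall when its Benjamini-Hochberg adjusted p over all genes tested was under 0.05 (edgeR quasi-likelihood test). Of the 36 members with enough counts to test, 21 rose and 2 fell with APX2009, and 13 did not pass. Over all 14773 genes tested, 34.7% passed, 17.2% higher and 17.4% lower. Because the members were chosen with earlier results of these data known, the comparison with these shares is a description. The median log2 change was 0.31 over the members and 0.02 over all genes tested. In 24 members every APX2009 library lay above every untreated library, and in 3 every one lay below, against 24.5% and 25.0% of all genes tested. At least 2-fold rises were found in 6 members (SELENOK, HERPUD1, SELENOS, DERL2, SYVN1 and RNF103) and in 2.94% of all genes tested. Without APX2009 replicate 1, the library that stood apart, 24 members rose and 2 fell, and all 23 calls were kept. With libraries scaled by their ERCC spike-in total no member passed (edgeR adjusted p from 0.0746 to 1 for the 23; 7 higher and 0 lower at an unadjusted p under 0.05), although all 23 kept their direction with a median absolute log2 change of 0.65 against 0.58. That scaling gave 129 higher and 7 lower among all genes. The spike-in share of counts was 0.315% in APX2009 replicate 1, but 0.752% and 0.734% in replicates 2 and 3. In untreated libraries it was 0.48% to 0.564%. Spike-in scaling thus raises the values of replicate 1 and lowers those of replicates 2 and 3 against the untreated libraries. The kept direction is one of group values and was not examined library by library under this scaling.

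**Figure D1:**
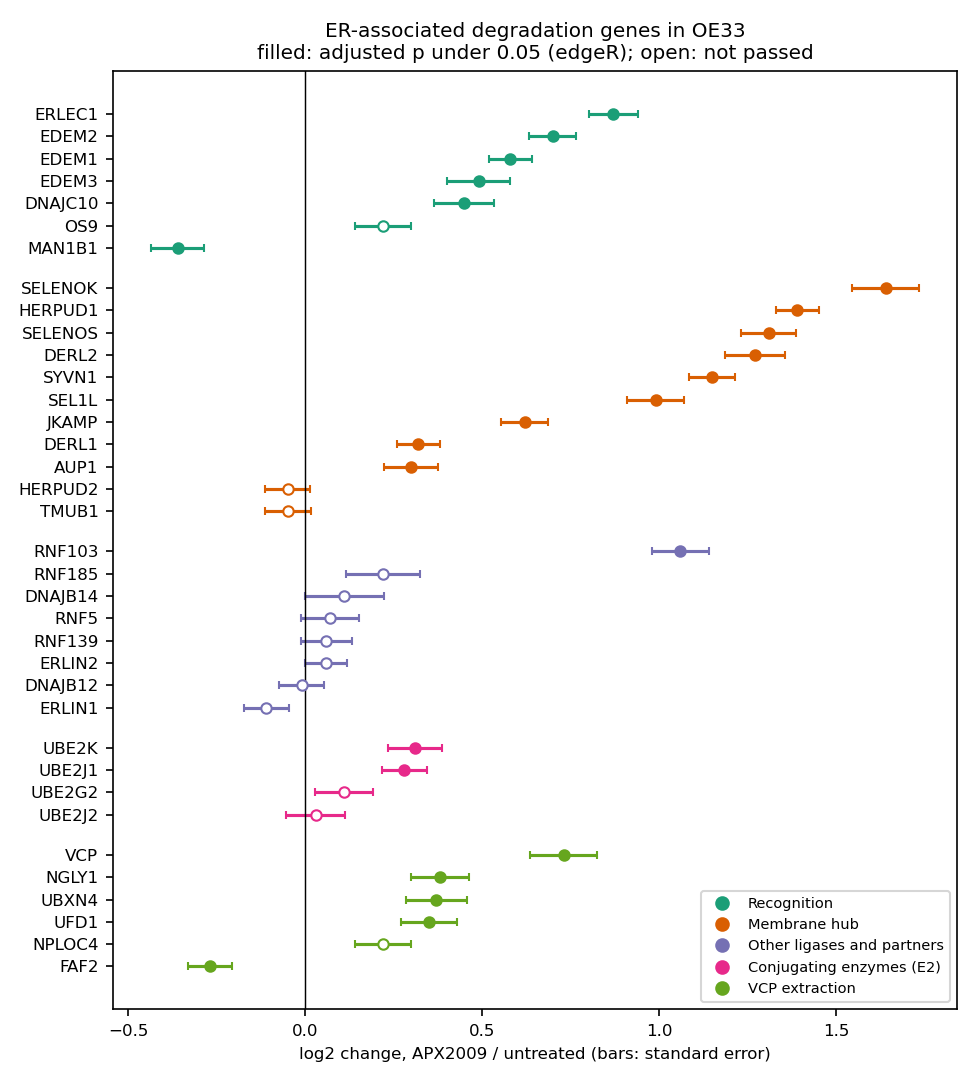
The x axis shows the log2 change of each tested member (APX2009 over untreated) with its standard error, grouped by role; filled points passed at an adjusted p under 0.05. The membrane hub reaches 1.64 for SELENOK, while 7 of the 8 genes of the other ligases and their partners are open points between -0.11 and 0.22. Over all genes tested, 34.7% passed in either direction.

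The membrane hub around SYVN1 and SEL1L held 5 of the 6 rises of at least 2-fold. Classes were assigned with earlier results of these data known, so the contrast between them is a description. Of the 12 hub genes 11 were tested, and 9 rose, against 17.2% of all genes tested. Their median log2 change was 0.99. SYVN1, the ligase itself (ENSG00000162298, chromosome 11, 65121780 to 65134533, GRCh38), measured 117, 116 and 118 CPM in the untreated libraries and 243, 269.8 and 264 CPM in the APX2009 libraries. All 3 treated libraries lay far above the narrow untreated range, a 2.21-fold rise (log2 change 1.15 ± 0.07, SE; edgeR adjusted p = 1.45e-06). SEL1L, which holds SYVN1 in place and receives clients (ENSG00000071537, chromosome 14, 81471549 to 81533861), measured 219, 245 and 233 CPM in the untreated libraries and 501, 455 and 425 CPM in the APX2009 libraries. It rose 1.98-fold (log2 change 0.99 ± 0.08; edgeR adjusted p = 1.42e-05), and its groups did not overlap.

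HERPUD1, a ubiquitin-like membrane protein that organises the SYVN1 complex (ENSG00000051108, chromosome 16, 56932048 to 56944863), had the smallest p of the members. It measured 143, 145 and 141 CPM in the untreated libraries and 379, 369.5 and 379.8 CPM in the APX2009 libraries, with both groups tightly spread. That was a 2.63-fold rise (log2 change 1.39 ± 0.06; edgeR adjusted p = 2.74e-07). Its paralogue HERPUD2 measured 60.2, 59.3 and 59.0 CPM in the untreated libraries and 61.5, 54.6 and 56.3 CPM in the APX2009 libraries, with overlapping groups and no call (log2 change -0.05 ± 0.06, or 0.05 with ERCC scaling; edgeR adjusted p = 0.583).

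The selenoproteins SELENOK and SELENOS, which bind derlins and, for SELENOS, tether VCP to the membrane, had untreated levels per length (TPM, counts over union exon length, scaled to a common total) of 26.1 ± 3.20 and 21.5 ± 2.07 (SD, n = 3). SELENOK (ENSG00000113811, chromosome 3, 53884410 to 53891988) measured 13.5, 16.0 and 13.7 CPM in the untreated libraries and 48.6, 42.0 and 43.8 CPM in the APX2009 libraries. It rose 3.12-fold, the largest rise of any member (log2 change 1.64 ± 0.09; edgeR adjusted p = 1.45e-06). SELENOS (ENSG00000131871, chromosome 15, 101270817 to 101277500) measured 19.6, 22.3 and 20 CPM in the untreated libraries and 54.3, 49.5 and 49.9 CPM in the APX2009 libraries, a 2.48-fold rise (log2 change 1.31 ± 0.08; edgeR adjusted p = 1.90e-06). Neither gene had a treated library near its untreated range.

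The 3 derlins are rhomboid-like proteins of the exit channel. DERL2 (ENSG00000072849, chromosome 17, 5471251 to 5486811) measured 13.6, 14.4 and 13.1 CPM in the untreated libraries and 34.6, 34.4 and 30.4 CPM in the APX2009 libraries and rose 2.42-fold (log2 change 1.27 ± 0.08; edgeR adjusted p = 4.03e-06). DERL1, the most abundant derlin per length, measured 158, 162.5 and 159 CPM in the untreated libraries and 195, 195 and 207 CPM in the APX2009 libraries and rose 1.24-fold (log2 change 0.32 ± 0.06; edgeR adjusted p = 0.00283). DERL3 had 0, 1 and 1 counts in untreated and 1, 4 and 3 counts in APX2009 libraries, too few to test or to give a fold change. On the opposite strand SMARCB1 overlaps 77.0% of the DERL3 exon bases, so its count can also depend on how shared reads were assigned.

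Of the 3 remaining hub members, 2 rose. JKAMP, which links membrane ligases with the proteasome, measured 25.8, 25.9 and 27.3 CPM in the untreated libraries and 40.7, 41.7 and 39.5 CPM in the APX2009 libraries and rose 1.54-fold (edgeR adjusted p = 8.06e-05). AUP1, a lipid droplet and ER protein that recruits the conjugating enzyme UBE2G2, measured 132, 119.5 and 124 CPM in the untreated libraries and 141, 154 and 166 CPM in the APX2009 libraries. It rose 1.23-fold (log2 change 0.30 ± 0.08; edgeR adjusted p = 0.0128). The call was lost without untreated replicate 2 or untreated replicate 3, where the log2 change was 0.27 and 0.29 (edgeR adjusted p = 0.0541 and 0.0526). TMUB1, a ubiquitin-like membrane protein, measured 39.3, 40.2 and 37.8 CPM in the untreated libraries and 36.6, 39.1 and 37.7 CPM in the APX2009 libraries with overlapping groups (log2 change -0.05 ± 0.06; edgeR adjusted p = 0.583).

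**Figure D2:**
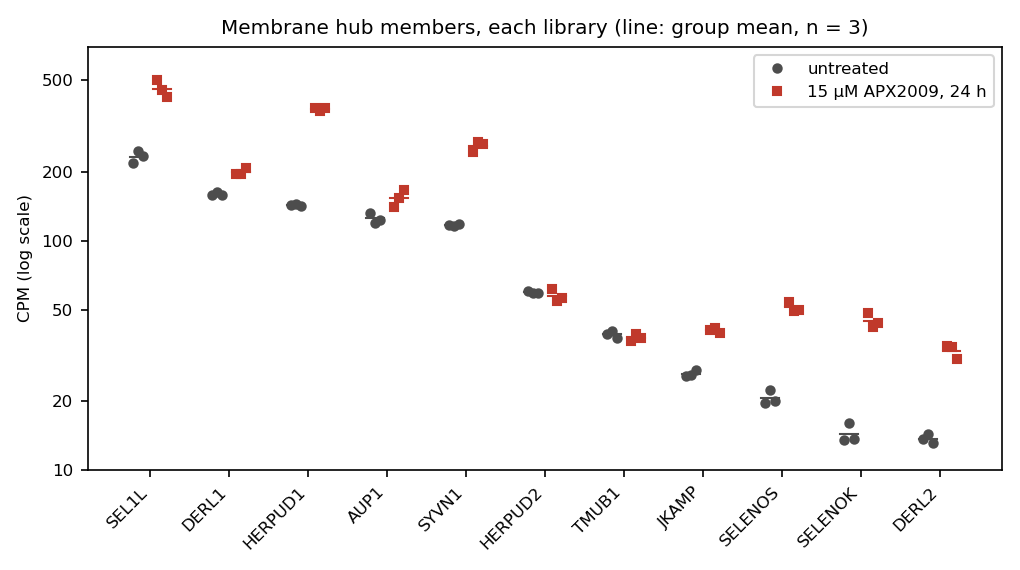
Level of the 11 tested membrane hub members in CPM on a log axis, 1 point a library and a line at each group mean. In HERPUD1, SYVN1, SEL1L, SELENOS, SELENOK, DERL2, JKAMP, DERL1 and AUP1 the treated squares lie above every untreated circle; HERPUD2 and TMUB1 overlap.

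Promoter windows of 30 of the 37 members were matched by symbol in RefSeq (GRCh38.p14), from 250 bases before to 50 after the start site. They were searched on both strands for exact matches to 4 motifs of the unfolded protein response: the ER stress element ERSE (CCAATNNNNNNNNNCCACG), ERSE-II (ATTGGNCCACG), the UPRE core (TGACGTGG) and the short element CCACG. Each of the first 3 contains CCACG on one strand or the other, so the counts overlap. The 4 stretches with an ERSE-II or UPRE core match are shown because those motifs were rare, and SELENOS because its window holds 4 CCACG matches. Capitals mark ERSE-II in HERPUD1, the UPRE core or its reverse complement in DNAJC10, UBE2J1 and VCP, and CCACG in SELENOS. RefSeq start sites can differ from the GENCODE gene bounds used elsewhere in this text. The DNAJC10 and VCP stretches lie inside the GENCODE bounds of those genes. Each stretch is read 5′ to 3′ along the gene.
HERPUD1, chr16:56932005-56932055, plus strand: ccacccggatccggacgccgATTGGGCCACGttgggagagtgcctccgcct
DNAJC10, chr2:182716112-182716159, plus strand: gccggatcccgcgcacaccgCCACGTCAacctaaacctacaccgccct
UBE2J1, chr6:89352926-89352972, minus strand: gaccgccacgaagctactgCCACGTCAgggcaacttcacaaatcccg
VCP, chr9:35072787-35072834, minus strand: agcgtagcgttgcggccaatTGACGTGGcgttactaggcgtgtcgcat
SELENOS, chr15:101277486-101277600, minus strand: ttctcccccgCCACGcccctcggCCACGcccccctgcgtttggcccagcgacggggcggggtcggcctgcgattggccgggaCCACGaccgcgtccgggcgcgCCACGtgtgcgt

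A gene with more than 1 RefSeq window was counted when any of its windows held a match. HERPUD1 held the only ERSE-II match among the 30 members with a window, at bases -117 to -107 from the start site. Of the 10228 tested genes with a window, 0.137% held one. A UPRE core was found in DNAJC10, UBE2J1 and VCP, and in 1.14% of tested genes. These 3 rose, as did 19 of the 30 members with a window, so their rise is not read as a result about the motif. An exact ERSE was in 0 of 30 members and 0.156% of tested genes. The element CCACG was found in 23 of 30 members: 15 of 19 members that rose, 6 of 9 that did not pass and both that fell, against 57.0% of tested genes. A match is a string of letters, and binding at these sites was not measured.

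Of the 7 recognition genes, 5 rose, 1 fell and 1 did not pass, against 17.2% higher and 17.4% lower over all genes tested. Their median log2 change was 0.49. ERLEC1, a lectin that reads trimmed glycans at SEL1L, measured 52.8, 56.6 and 54.3 CPM in the untreated libraries and 106, 101 and 92.3 CPM in the APX2009 libraries. It rose 1.83-fold without overlap (log2 change 0.87 ± 0.07; edgeR adjusted p = 1.23e-05). OS9, the companion lectin and the more abundant of the pair per length, measured 298.5, 304 and 298 CPM in the untreated libraries and 310.1, 368 and 369 CPM in the APX2009 libraries. Its treated libraries lay above the untreated ones, but the change did not pass (log2 change 0.22 ± 0.08; edgeR adjusted p = 0.0557). It passed under 7 of 18 alternatives, among them leaving out APX2009 replicate 1 (log2 change 0.29; edgeR adjusted p = 3.25e-04), but not without APX2009 replicate 3 (0.18; edgeR adjusted p = 0.144).

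The 3 EDEM mannosidases, which trim glycans to mark a protein for disposal, all rose. EDEM1 (ENSG00000134109, chromosome 3, 5187646 to 5219957) measured 148, 153 and 142 CPM in the untreated libraries and 222, 219 and 221 CPM in the APX2009 libraries, a 1.49-fold rise with little spread (log2 change 0.58 ± 0.06; edgeR adjusted p = 7.49e-05). EDEM2 measured 32.1, 33.5 and 35.6 CPM in the untreated libraries and 55.0, 53.0 and 56.1 CPM in the APX2009 libraries, a 1.62-fold rise (edgeR adjusted p = 3.82e-05). EDEM3 measured 62.0, 67.2 and 72.5 CPM in the untreated libraries and 105.5, 91.3 and 85.5 CPM in the APX2009 libraries, a 1.40-fold rise (edgeR adjusted p = 0.00216). In all 3 genes the groups did not overlap. DNAJC10 (ERdj5), a J protein that reduces disulfides of clients, measured 148, 155 and 159 CPM in the untreated libraries and 236, 208 and 189 CPM in the APX2009 libraries and rose 1.37-fold (edgeR adjusted p = 0.0024). MAN1B1, the alpha-mannosidase that acts early in trimming (ENSG00000177239, chromosome 9, 137086927 to 137109187), went the other way. It measured 89.9, 86.4 and 86.4 CPM in the untreated libraries and 61.8, 74.4 and 68.2 CPM in the APX2009 libraries and was 1.29-fold lower (log2 change -0.36 ± 0.07; edgeR adjusted p = 0.00409).

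Among the ligases outside the SYVN1 complex and their partners, 1 of 8 rose and 7 did not pass, with a median log2 change of 0.07. That was near the 17.2% of all genes tested that rose, so the count is not read as a result about this class. The riser was RNF103 (KF-1), a membrane RING ligase (ENSG00000239305, chromosome 2, 86603393 to 86623866). It measured 35.1, 38.1 and 40.2 CPM in the untreated libraries and 76.9, 72.9 and 86.3 CPM in the APX2009 libraries, a 2.08-fold rise (log2 change 1.06 ± 0.08; edgeR adjusted p = 9.74e-06). RNF139 (TRC8), a ligase tied to sterol control, measured 42.6, 41.9 and 44.4 CPM in the untreated libraries and 41.0, 46.3 and 46.9 CPM in the APX2009 libraries, and its groups overlapped (log2 change 0.06 ± 0.07; edgeR adjusted p = 0.564). RNF5 and RNF185 are paralogous ligases that share clients such as misfolded CFTR, and both had overlapping groups. RNF5 measured 46.8, 47.4 and 47.7 CPM in the untreated libraries and 43.6, 52.5 and 52.8 CPM in the APX2009 libraries (log2 change 0.07 ± 0.08; edgeR adjusted p = 0.547), and it passed without APX2009 replicate 1 (log2 change 0.15; adjusted p = 0.0495). Without APX2009 replicate 2 or 3 the log2 change of RNF5 was 0.03 and 0.02 (edgeR adjusted p = 0.817 and 0.883), so its value depended on which treated library was left out. RNF185 measured 37.4, 43.0 and 32.3 CPM in the untreated libraries and 41.2, 42.3 and 48.3 CPM in the APX2009 libraries (log2 change 0.22 ± 0.10; edgeR adjusted p = 0.126), and it passed without untreated replicate 2 (log2 change 0.34; adjusted p = 0.0394). Without untreated replicate 3 or APX2009 replicate 3 the log2 change of RNF185 was 0.13 and 0.15 (edgeR adjusted p = 0.411 and 0.335).

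ERLIN1 and ERLIN2 form the scaffold through which IP3 receptors are degraded. ERLIN1 measured 119.8, 122 and 125 CPM in the untreated libraries and 107, 118 and 116 CPM in the APX2009 libraries, with every treated library lower but no call (log2 change -0.11 ± 0.06; edgeR adjusted p = 0.212). ERLIN2 measured 69.3, 74.4 and 74.2 CPM in the untreated libraries and 76.1, 75.7 and 75.8 CPM in the APX2009 libraries and was not called either (log2 change 0.06 ± 0.06; edgeR adjusted p = 0.446). The membrane J proteins DNAJB12 and DNAJB14, which bring HSC70 to membrane clients, had log2 changes of -0.01 ± 0.06 (0.04 with ERCC scaling) and 0.11 ± 0.11 (edgeR adjusted p = 0.932 and 0.474). DNAJB12 measured 87.0, 92.7 and 90.8 CPM in the untreated libraries and 85.2, 90.1 and 93.7 CPM in the APX2009 libraries. DNAJB14 measured 27.4, 26.3 and 23.9 CPM in the untreated libraries and 32.1, 28.2 and 23.4 CPM in the APX2009 libraries. In both J protein genes the groups overlapped.

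Of the 4 conjugating enzymes 2 rose, against 17.2% of all genes tested. Each of the 2 rises was small. UBE2J1, the membrane-anchored partner of SYVN1 (ENSG00000198833, chromosome 6, 89326625 to 89352848), measured 94.9, 95.8 and 102 CPM in the untreated libraries and 122, 121 and 112 CPM in the APX2009 libraries. It rose 1.21-fold (log2 change 0.28 ± 0.06; edgeR adjusted p = 0.00753), beside 2.21-fold for SYVN1. UBE2K, which builds K48-linked chains, measured 99.2, 101.5 and 103 CPM in the untreated libraries and 139.7, 118 and 118.5 CPM in the APX2009 libraries and rose 1.24-fold (edgeR adjusted p = 0.0102). In both enzymes that rose, the groups did not overlap. The membrane-anchored UBE2J2 measured 43.9, 49.8 and 43.3 CPM in the untreated libraries and 42.7, 46.4 and 50.7 CPM in the APX2009 libraries (log2 change 0.03 ± 0.08; edgeR adjusted p = 0.822). UBE2G2, the enzyme that AUP1 recruits, measured 61.2, 56.5 and 61.1 CPM in the untreated libraries and 71.7, 59.2 and 61.5 CPM in the APX2009 libraries (log2 change 0.11 ± 0.08; edgeR adjusted p = 0.336). Groups overlapped in UBE2J2 and UBE2G2.

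At the extraction step 4 of 6 genes rose, 1 fell and 1 did not pass, against 17.2% higher and 17.4% lower over all genes tested. VCP, the ATPase of the pathway (ENSG00000165280, chromosome 9, 35056064 to 35073249), measured 257, 269.7 and 266 CPM in the untreated libraries and 381, 438 and 499 CPM in the APX2009 libraries. The rise was 1.66-fold (log2 change 0.73 ± 0.09; edgeR adjusted p = 2.67e-04), with a treated SD of 59.4 CPM against 6.67 CPM in untreated libraries. The treated libraries were spread widely but all lay above the untreated ones. Of its ubiquitin-binding cofactors, UFD1 measured 55.6, 56.7 and 59.3 CPM in the untreated libraries and 66.9, 70.0 and 81.3 CPM in the APX2009 libraries and rose 1.27-fold (edgeR adjusted p = 0.00731). NPLOC4 measured 145, 143 and 141 CPM in the untreated libraries and 152, 162 and 187 CPM in the APX2009 libraries and missed the threshold (log2 change 0.22 ± 0.08; edgeR adjusted p = 0.053), though it passed under 7 of 18 alternatives, among them leaving out APX2009 replicate 1 (log2 change 0.29; edgeR adjusted p = 0.00301). Without APX2009 replicate 3 the log2 change of NPLOC4 was 0.13 (edgeR adjusted p = 0.14).

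UBXN4 and FAF2, both membrane proteins that recruit VCP, moved in opposite directions. UBXN4 (erasin) measured 141.5, 137 and 132 CPM in the untreated libraries and 201, 168 and 161 CPM in the APX2009 libraries and rose 1.29-fold (edgeR adjusted p = 0.008). FAF2 (UBXD8), which also acts on lipid droplets and in sterol control, measured 93.8, 95.5 and 95.7 CPM in the untreated libraries and 75.1, 77.6 and 83.2 CPM in the APX2009 libraries and was 1.21-fold lower (log2 change -0.27 ± 0.06; edgeR adjusted p = 0.00711). NGLY1, the cytosolic glycanase that strips glycans from extracted proteins, measured 16.8, 16.0 and 17.3 CPM in the untreated libraries and 22.0, 20.4 and 22.8 CPM in the APX2009 libraries and rose 1.30-fold (edgeR adjusted p = 0.00517).

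Per length (TPM), the order of member levels changed. In untreated cells OS9 was highest at 228 ± 8.87 TPM (SD, n = 3), then VCP at 191 ± 10.7 and AUP1 at 186 ± 3.73, whose libraries overlapped, then RNF5 at 157.5 ± 6.26. HERPUD1 followed at 109 ± 4.14 TPM and overlapped its lower neighbour UBXN4. From HERPUD1 at rank 5 down to NPLOC4 at rank 21, each member's libraries overlapped those of the next. With APX2009, VCP at 303 ± 48.8, HERPUD1 at 273 ± 8.03 and OS9 at 253 ± 32.7 TPM (rank 5 to 2 for HERPUD1) were highest, each overlapping the next, and SEL1L and SYVN1 overlapped at 179.9 ± 10.0 and 176.5 ± 15.5 TPM. DERL2, NGLY1 and DNAJB14 were the lowest tested members per length in both groups, with DERL2 at 8.41 ± 0.567 and 19.4 ± 1.29 TPM. Union exon length takes in every annotated exon, so the order between genes depends on it. By mean CPM in untreated libraries, SELENOK (14.4) lay below NGLY1 (16.7) and DNAJB14 (25.9). With APX2009, NGLY1 (21.7), DNAJB14 (27.9) and DERL2 (33.1) were the lowest tested members by mean CPM too.

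Summed over its 11 tested genes, the membrane hub held 765, 816 and 792 TPM in untreated and 1221, 1298 and 1298 TPM in APX2009 libraries. The 8 other ligases and partners summed to 441, 484 and 472 TPM in untreated and 425, 499 and 509 TPM in APX2009 libraries. The hub sums were apart and the ligase sums overlapped; the difference between the classes was not tested. Recognition genes summed to 538 to 590 TPM in untreated and 697 to 769 TPM in APX2009 libraries. In the same order, conjugating enzymes summed to 222 to 241 and 257 to 265 TPM, and extraction genes to 432 to 465 and 532 to 641 TPM. Mean log2 differences from the untreated mean over the 36 tested members were 0.427, 0.421 and 0.438 in APX2009 replicates 1, 2 and 3, and ran from -0.020 to 0.021 in untreated libraries. Among the 21 members that rose, replicate 1 was the highest treated library in 11, replicate 2 in 2 and replicate 3 in 8.

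**Figure D3:**
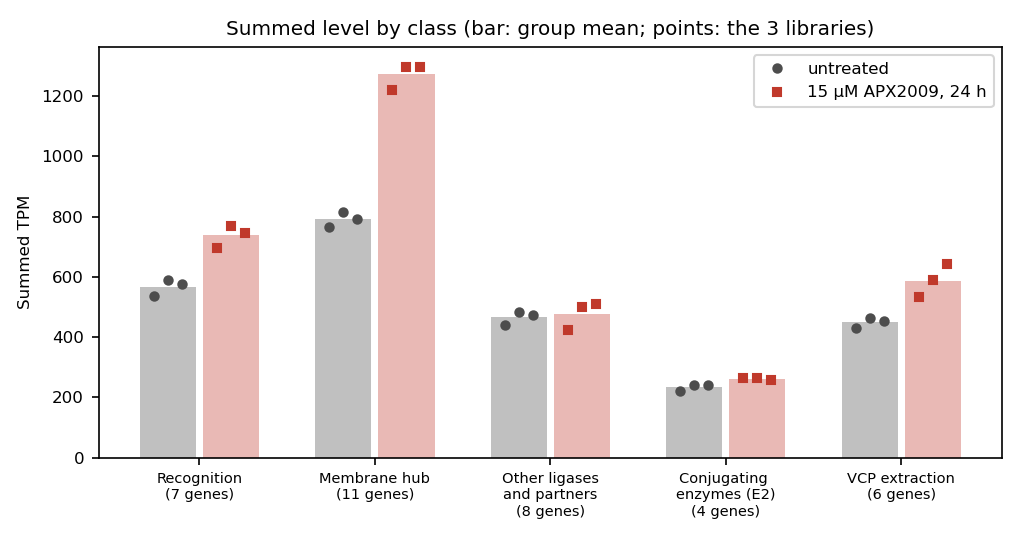
Summed TPM of the tested members of each class on a linear axis from 0, with bars at group means and points for the 3 libraries of each group. The hub sums are 765 to 816 TPM in untreated and 1221 to 1298 TPM in APX2009 libraries, and the points of the other ligases overlap.

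A ratio of counts of 2 members in the same library does not depend on how libraries are scaled. In all, 8 pairs were compared by an exact two-sided permutation test of the log2 ratio, for which 0.1 is the smallest p that 3 against 3 libraries allow, so none could pass. The HERPUD1 to HERPUD2 count ratio was 2.41 in untreated and 6.55 in APX2009 cells, and log2 ratios of 1.25, 1.29 and 1.26 became 2.62, 2.76 and 2.75 without overlap (exact p = 0.1, adjusted over the pairs 0.343). The OS9 to ERLEC1 ratio fell from 5.50 to 3.49, with log2 ratios of 2.5, 2.42 and 2.45 against 1.55, 1.86 and 2.00 and no overlap (exact p = 0.1, adjusted 0.343). In these 2 pairs alone did the libraries not overlap. For SYVN1 to SEL1L the mean log2 ratio was -0.99 ± 0.09 in untreated and -0.83 ± 0.19 in APX2009 libraries (SD, n = 3, exact p = 0.3), with overlapping libraries. The EDEM1 to EDEM2, EDEM1 to EDEM3, UBE2J1 to UBE2J2 and RNF5 to RNF185 ratios also overlapped, with mean log2 differences of -0.12, 0.10, 0.25 and -0.17. No ratio is given for DERL3 to DERL1 because of the few DERL3 counts.

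**Figure D4:**
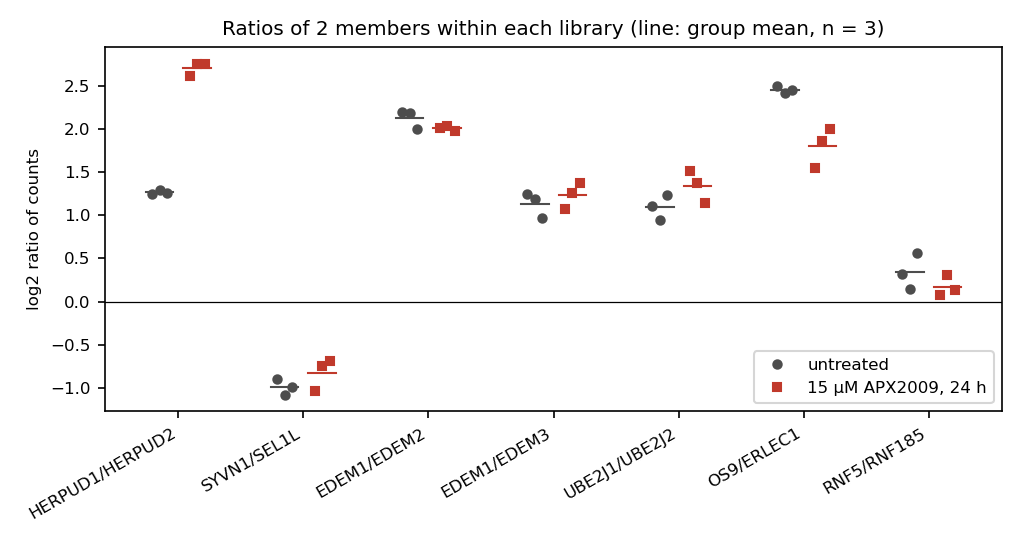
The log2 ratio of counts of 2 members within each library, with a line at each group mean, for 7 pairs. HERPUD1/HERPUD2 lies higher and OS9/ERLEC1 lower in all 3 treated libraries; the other 5 pairs overlap.

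Of 72 further ERAD genes 70 were tested, 22 rose and 4 fell, with a median log2 change of 0.08. Over all genes tested, 17.2% rose and 17.4% fell. Of 14 tested recognition and folding genes 11 rose, among them the BiP cofactor SDF2L1 (7.44-fold), the lectin chaperone CALR (4.49-fold), BiP itself, HSPA5 (3.88-fold), and the chaperone genes DNAJB11 (3.48-fold) and HSP90B1 (3.52-fold), which had the smallest p of this list. Of 14 tested membrane proteins 5 rose and 9 did not pass. In 13 tested ligases 2 rose and 2 fell, in 23 cytosolic factors 4 rose and 2 fell, and the 6 deubiquitinases did not pass. The ligase and cytosolic rises were near the share of all genes that rose, so they are not read as a result about these classes. Among the falls were the ligase genes TMEM129 (1.60-fold lower) and STUB1 (1.47-fold lower) and the ubiquitin shuttle gene UBQLN4 (1.24-fold lower), with edgeR adjusted p from 1.91e-04 to 0.00552. FBXO27, a substrate adaptor gene for glycoproteins, missed the threshold (log2 change -0.61 ± 0.22; edgeR adjusted p = 0.0556).

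Transcripts of 9 regulators that feed ERAD genes through the unfolded protein response were read beside the members. Of these, 5 rose and 1 fell, against 17.2% higher and 17.4% lower over all genes tested. XBP1, whose spliced product drives many ERAD genes, went from 239, 227 and 234 to 318, 326 and 354 CPM, a 1.43-fold rise (edgeR adjusted p = 2.97e-04); gene counts do not separate spliced from unspliced XBP1. The kinase gene EIF2AK3 (PERK) rose 2.70-fold, DDIT3 2.11-fold, ATF4 1.24-fold and the XBP1-splicing kinase gene ERN1 1.24-fold (edgeR adjusted p from 1.52e-06 to 0.022). ATF6B was 1.33-fold lower (edgeR adjusted p = 0.00154), while ATF6 and the proteases that cut it, MBTPS1 and MBTPS2, had log2 changes of 0.01 ± 0.07, -0.03 ± 0.06 and -0.15 ± 0.08 and did not pass.

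Shared exons limit some of these values, since the strand setting of the counting is not given in the sources used here. SYVN1 shares 7.2% of its exon bases with FAU on the same strand and 6.5% with MRPL49 on the other. RNF103 shares 6.7% with the readthrough gene RNF103-CHMP3 on the same strand and 18% with the antisense gene AC015971.1. AUP1 shares 18.3% with HTRA2, and DERL2 shares 4.7% with MIS12, in each case on the opposite strand. Annotated pseudogenes named after ERLEC1, SELENOK, RNF5, FAF2 and JKAMP averaged at most 4.3 counts a library, against 694 counts for SELENOK, the least counted of these 5 genes.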

How the data were processed

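The deposited table holds the authors' raw counts per Ensembl gene (58051 genes) and for 92 ERCC spike-ins, with no normalization. The submitters' processing notes list GRCh38, featureCounts, Subread 1.5.2, STAR 2.5.2b and Trimmomatic 0.36; their annotation release, strand setting and filters were not given in the sources used here. GENCODE 29 supplied symbols, coordinates and exon lengths for 57447 of the gene IDs. Spike-ins, 0.315% to 0.752% of counts, did not enter library sizes or tests.

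After filterByExpr and TMM scaling, edgeR 4.0.16 (R 4.3.3) fitted treatment as the sole term, and its quasi-likelihood test gave p-values adjusted by Benjamini-Hochberg over all 14773 genes tested. The SE of a log2 change was derived from the F statistic. CPM use the TMM-scaled library, and TPM use union exon length. The step was tested on simulated counts. Alternatives, 18 for each member, used DESeq2 1.42.0, limma 3.58.1 and other scalings, filters and samples. Pair ratios used a pseudocount of 0.5 and scipy 1.17.1. Figures used matplotlib 3.10.9.

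The members and lists were chosen with earlier results of these data known. Every member is named; of the further ERAD genes the 5 smallest p in each direction (1 of them is not reported here), and every regulator. The series' design text calls the replicates independent. Library pairs within a group differed beyond sampling noise (chi-square per degree of freedom 3.06 to 30.0), which does not show what kind of replicate they are. The highest values, 26.8 and 30.0, were of pairs with APX2009 replicate 1, and APX2009 replicates 2 and 3 gave 4.93.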

Additional observations from a re-analysis of the deposited data

How the results depend on the processing

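Of the 23 members that passed, all 23 passed with RLE factors, total counts, upper-quartile factors, either filter, DESeq2, limma voom and without mitochondrial and the 20 most counted genes. Leaving out 1 library kept 22 or 23 of them. With ERCC scaling, higher and lower counts were 0 and 0 for members, 5 and 0 for other ERAD genes, 0 and 0 for regulators, and 129 and 7 for all genes; the spread of spike-in shares within the treated group moves with this, and the cause was not tested. Tested against a 1.5-fold change they were 8 and 0, 9 and 0, 2 and 0, and 351 and 255, because that test asks for a larger change (10 members higher and 0 lower at an unadjusted p under 0.05); at an adjusted p under 0.01, 21 of the 23 members still passed, beside 1470 higher and 1587 lower genes in all. Uncalled members near 0 turned sign: HERPUD2 (0.05) and DNAJB12 (0.04) with ERCC scaling, and on leaving out 1 library UBE2J2 (-0.04 to 0.10), DNAJB12 (-0.04 to 0.02) and DNAJB14 (-0.01 to 0.22), for which the cause was not tested.

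Same-numbered libraries share only a number: correlations of their deviations from group means were 0.157, 0.0955 and 0.0417, and untreated replicate 2 correlated more with APX2009 replicate 3 (0.132). With the replicate number as a block 23 members were higher and 2 lower, OS9 (log2 change 0.21) and NPLOC4 (0.22) being added. At these depths the tested members had from 294 to 13368 counts a library, and DERL3 could not be measured.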
